A study of Mus musculus with 59 samples.

Results

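Proteins that bind the ends of actin filaments were followed at the mRNA level through 8 genes in mouse skeletal muscle: Capza1, Capza2, Capzb, Capg, Tmod1, Tmod4, Lmod2 and Lmod3. The members were taken by gene symbol from a table of 47643 symbols, and all 8 were found there, each as 1 row, and all 8 passed every filter on low values. Levels are given as TPM, a unit of relative transcript abundance that corrects for transcript length and gives every library the same total, so that the sequencing depth behind a value is unknown. All differences are given as log2 fold changes of TPM + 1, a scale on which changes of weakly expressed genes appear smaller than they are.

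The 59 libraries came from female mice of the strain NCI Ath/nude at 4 months of age, which lack a thymus and carried a human patient-derived melanoma xenograft in the flank. The melanoma was either cachectic, meaning that it induces the wasting of the host, or non-cachectic, and each kind was 1 xenograft line, so that the difference between the melanomas is a difference between 2 tumors. Diaphragms were taken from mice that received intraperitoneal recombinant Fibcd1 (rFibcd1) or, as mock treatment, 1% BSA in PBS: 10 with a cachectic melanoma and mock, 10 with a cachectic melanoma and rFibcd1, 9 with a non-cachectic melanoma and mock, and 10 with a non-cachectic melanoma and rFibcd1. The tibialis anterior (TA), a fast limb muscle, and the soleus (SOL), a slow one, were each sampled 5 times with either melanoma, and no injection is stated for these groups. No tumor-free mouse is among these groups.

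Fiber markers set the muscles apart. Summed TPM of fast-fiber markers averaged 36075 and 42225 in the non-cachectic and cachectic TA, and summed slow-fiber markers 16537 and 18362 in the SOL, against 41.5 and 17.1 in the TA. Of the slow-fiber markers in the TA, Myl3 averaged 37.7 TPM with a non-cachectic melanoma and 5.89 TPM with a cachectic one. Myh7, Tnnt1 and Tnni1 went the other way, from 0.849 to 2.50, 2.20 to 6.52 and 0.821 to 2.18 TPM. In the SOL the fast-fiber sum was 4255 to 6500 TPM with a non-cachectic melanoma and 3826 to 17281 TPM with a cachectic one. In the library at 17281 TPM it exceeded the slow-fiber sum of 15540 TPM, and without that library no member's call in the SOL changed. The diaphragm groups had fast-fiber means of 15622 to 20912 TPM and slow-fiber means of 1209 to 1468 TPM. Melanocyte markers summed to at most 0.407 TPM in any library. Liver markers reached 7024 TPM in 1 diaphragm library. Genes above 0 TPM numbered 16436 to 17673 in the TA, 17514 to 18191 in the SOL and 17950 to 19456 in the diaphragm. The mitochondrial share of TPM averaged 38.1% against 47.5% in the mock diaphragm, 38.8% against 48.5% in the TA and 30.5% against 41.1% in the SOL, cachectic first. The part of these differences in the results was not tested.

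An actin filament grows and shrinks at its barbed end and, more slowly, at its pointed end. In the sarcomere, the contractile unit of the myofiber, the barbed ends are anchored at the Z-disc, where the heterodimer CapZ, made of an alpha subunit (encoded by Capza1 or Capza2) and a beta subunit (Capzb), closes them. Capg closes barbed ends as a single chain and is best known from macrophages. At the pointed ends, tropomodulins (Tmod1, and Tmod4 in skeletal muscle) cap the thin filament, while the related leiomodins (Lmod2 and Lmod3) start filaments and favour their elongation, so that only some of the members are cappers in the strict sense. Loss of LMOD3 in humans causes nemaline myopathy, and LMOD2 is known from heart muscle.

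The level of Capza1 could not be read on its own, because the table holds a second row, the pseudogene Gm3608, with nearly the same sequence. In GRCm38 with the GENCODE M21 annotation, Capza1 lies on the minus strand of chr3:104822779-104864505, and its transcript of 3193 bases has 10 exons. Gm3608 lies on the plus strand of chr1:105455971-105458829. Its transcript of 2858 bases was 99.5% identical to that of Capza1 over 2859 aligned columns, with 8 mismatches and 5 gap columns. Within the 861 coding bases of Capza1, 860 aligned and 3 differed, T543C, A664G and A760G, counted from the A of the start codon with the Capza1 base first. The longest stretch without any difference was 583 bases. By contrast, Capza2 was 77.3% identical to Capza1 over 866 aligned columns. Coding bases 641 to 760 are shown to make visible how little of a read can tell Capza1 from Gm3608, and how much can tell either from Capza2. The window holds 2 of the 3 coding differences. In Capza1 it spans 3 coding exons on the minus strand, chr3:104828527-104828543, chr3:104825407-104825469 and chr3:104825085-104825124. In Gm3608 it is 1 unbroken stretch of the plus strand, chr1:105456623-105456742. All are written 5′ to 3′ in the sense direction, and capitals mark the bases that differ between Capza1 and Gm3608 and, for Capza2, all of its 32 differences from Capza1.
Capza1: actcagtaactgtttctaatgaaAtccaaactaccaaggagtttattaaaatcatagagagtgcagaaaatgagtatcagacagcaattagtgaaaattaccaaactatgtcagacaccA
Gm3608: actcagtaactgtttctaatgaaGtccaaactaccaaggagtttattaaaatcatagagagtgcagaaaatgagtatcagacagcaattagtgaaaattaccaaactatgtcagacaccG
Capza2: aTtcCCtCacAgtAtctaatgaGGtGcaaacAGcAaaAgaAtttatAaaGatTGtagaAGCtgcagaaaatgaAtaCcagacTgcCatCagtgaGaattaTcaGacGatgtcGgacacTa

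The libraries fell into 2 states by the processed pseudogene Pcna-ps2 at chr19:9283380-9284160: 36 libraries were above 3 TPM (lowest 5.60) and 23 were at most 3 TPM (highest 0.428). In the limb muscles the state coincided with the melanoma, with all 10 cachectic libraries high and all 10 non-cachectic libraries low, so that state and melanoma cannot be told apart there. In the diaphragm 26 libraries were high and 13 low. The high state held 9 of 10 cachectic mock libraries, 8 of 10 cachectic rFibcd1 libraries, 3 of 9 non-cachectic mock libraries and 6 of 10 non-cachectic rFibcd1 libraries.

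Gm3608 followed this state without overlap. It was at 14.9 to 52.0 TPM in the 26 high diaphragm libraries and at 0.203 to 0.974 TPM in the 13 low ones, and in the limb muscles at 10.1 to 22.5 TPM with a cachectic melanoma and at 0.0767 to 0.355 TPM with a non-cachectic one. Of the TPM assigned to Capza1 and Gm3608 together, Gm3608 took 69.2% ± 1.55 (SD, n = 36; range 66.2 to 72.3%) in the high state and 1.75% ± 0.975 (SD, n = 23; 0.419 to 5.55%) in the low state. Within each state the division between both rows was thus narrow across muscles, melanomas and treatments. Capza1 itself was at 10.7 ± 3.65 TPM (SD, n = 26) in the high diaphragm libraries and at 21.3 ± 3.04 TPM (SD, n = 13) in the low ones. The ranges were 6.47 to 20.3 TPM and 16.6 to 27.2 TPM, so that 2 high libraries reached the low ones. How reads were divided between both loci in the deposited values, and its part in any Capza1 difference, was not tested. The sum of Capza1 and Gm3608 is therefore given beside the tests of Capza1.

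**Figure D1:**
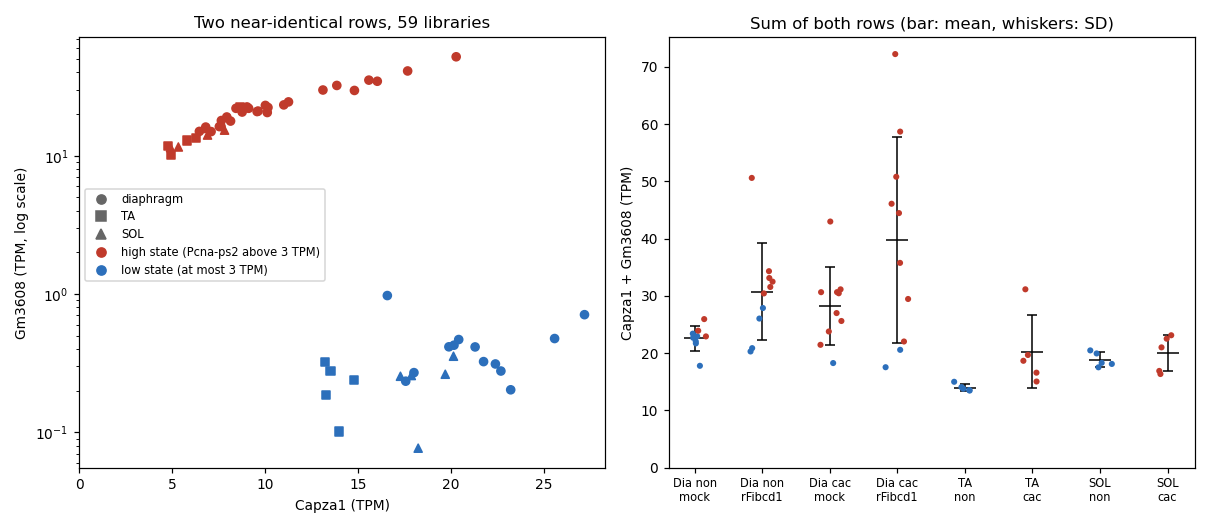
Left, Capza1 (TPM) against Gm3608 (TPM, log scale) for the 59 libraries, with the symbol giving the muscle and the color the Pcna-ps2 state; right, the summed TPM of both in each group, with points for libraries, bars for means and whiskers for the SD. High-state libraries (36) lie above 10 TPM of Gm3608 and low-state libraries (23) below 1 TPM, and the sum of both stood at 22.6 ± 2.18 to 39.8 ± 17.9 TPM in the 4 diaphragm groups.

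The other members were compared between the states of the diaphragm with the shift of the whole table beside them. With group as a term, the high state minus the low state was 0.26 ± 0.0528 (SE) for Capza2, 0.32 ± 0.0575 for Capzb and 0.32 ± 0.0678 for Tmod1, while the median over all 13426 genes was 0.23. After median-ratio scaling, which sets the median gene near 0, the same differences were -0.03, 0.03 and 0.03. Values below 0 on both scales were those of Capza1 (-0.995 ± 0.121, and -1.27 after scaling), Lmod3 (-0.33 ± 0.113 and -0.62), Lmod2 (-0.40 ± 0.205 and -0.69) and Tmod4 (-0.12 ± 0.0684 and -0.41). Capg was at 0.50 ± 0.216 and 0.22, and the sum of Capza1 and Gm3608 at 0.58 ± 0.128 on the TPM scale. These values are a description of the states, without a test.

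On the TPM scale, which is per length, the order of the members depended on the muscle. In every group Capza1 and Capg had the lowest means. In the TA Tmod1 was above Capzb with a non-cachectic melanoma (128 against 110 TPM) and above Lmod3 with a cachectic one (113 against 102 TPM). Tmod4, the tropomodulin of skeletal muscle, had group means of 216 to 385 TPM, highest in the cachectic TA and lowest in the non-cachectic mock diaphragm. Capzb had 80.2 to 133 TPM, with the same groups at the top and the bottom. Capza2 had 47.2 to 94.0 TPM, again highest in the cachectic TA, and Tmod1 had 42.7 TPM in the non-cachectic SOL to 128 TPM in the non-cachectic TA. In contrast, Lmod2 spanned 130 TPM in the non-cachectic TA to 1358 TPM in the cachectic SOL, and Lmod3 ran from 102 TPM in the cachectic TA to 278 TPM in the non-cachectic SOL. Capg had 3.99 TPM in the non-cachectic TA to 23.4 TPM in the cachectic rFibcd1 diaphragm, and Capza1 6.09 TPM in the cachectic TA to 18.6 TPM in the non-cachectic SOL. When the 8 groups were ordered by their means, nearly all neighbours had overlapping ranges. The exceptions were the cachectic and non-cachectic TA for Capg and for Tmod4, and the non-cachectic mock diaphragm and non-cachectic SOL for Tmod1.

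**Figure D2:**
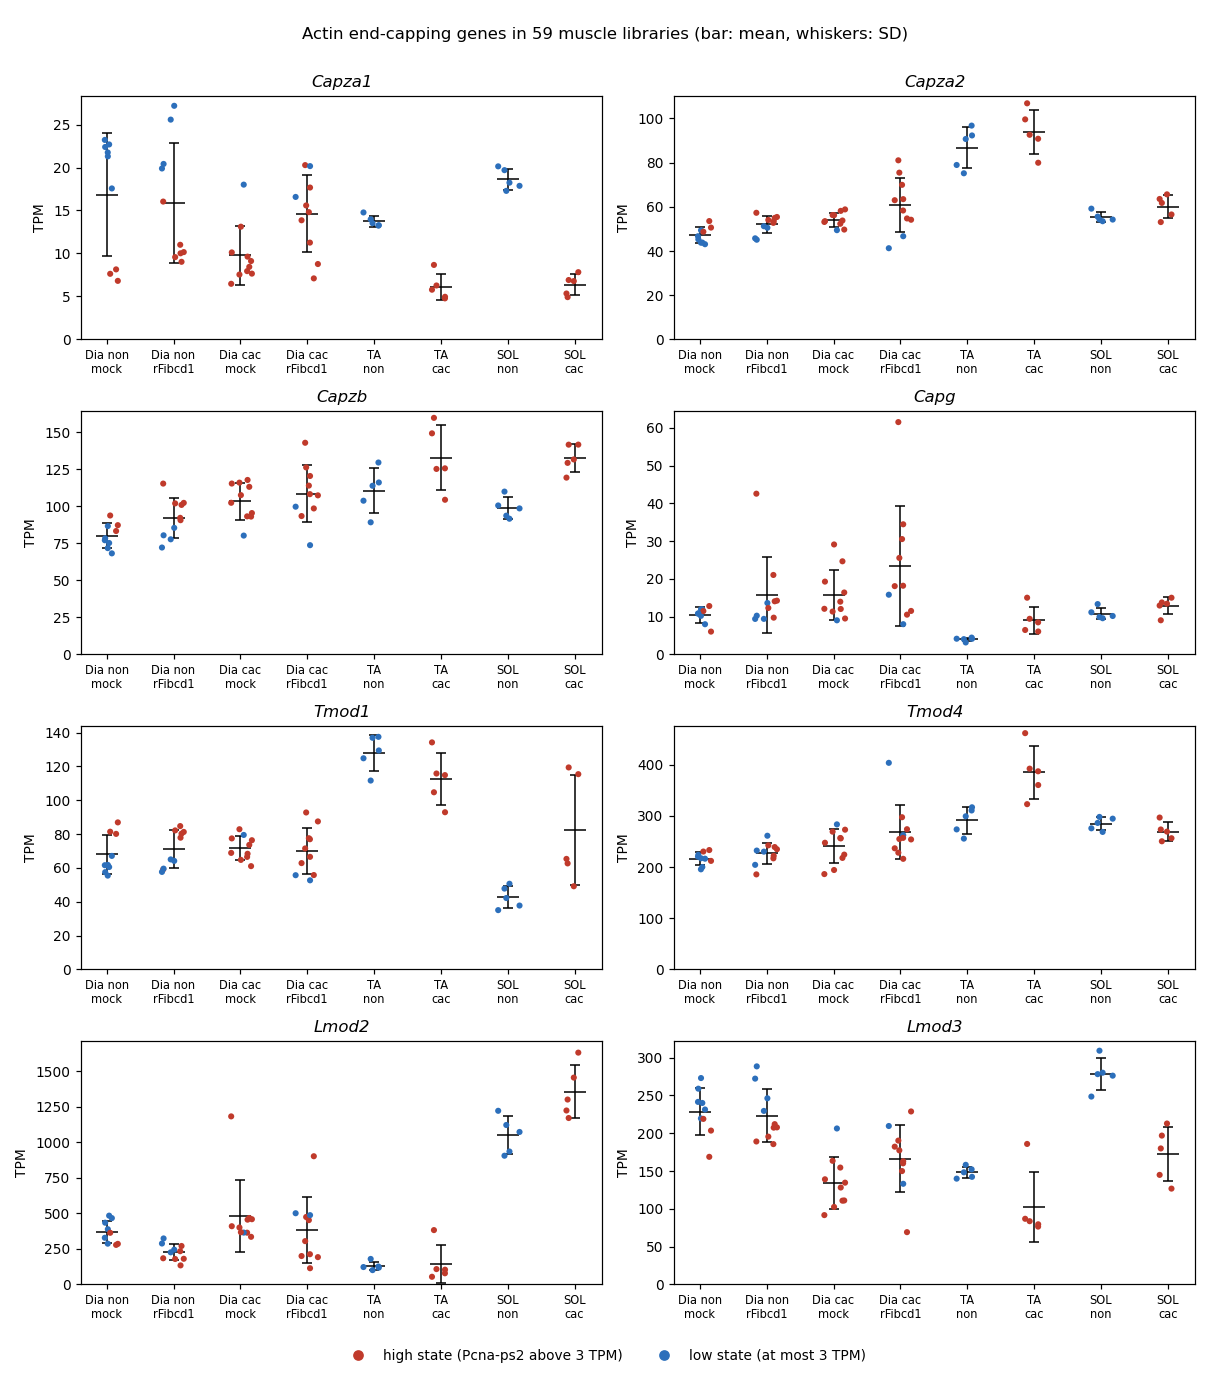
TPM of each of the 8 genes in the 59 libraries by group; points are libraries colored by the Pcna-ps2 state, bars are group means and whiskers the SD. Lmod2 is highest in the SOL (907 to 1633 TPM) and Lmod3 is lower with a cachectic melanoma in each muscle, with overlapping ranges in the diaphragm and the TA.

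The first question was how the members differed between mice with a cachectic and a non-cachectic melanoma. In the mock-treated diaphragm 3 of the 8 passed the test (limma, adjusted p under 0.05), Capzb higher and Capza1 and Lmod3 lower, beside 33.5% of the 13426 genes tested, and the median of all genes was itself shifted by 0.20 log2. In the rFibcd1-treated diaphragm 1 of 8 passed, Lmod3, beside 9.11% of all genes. In the TA 4 of 8 passed, Capg and Tmod4 higher and Capza1 and Lmod3 lower, beside 60.2% of 11105 genes with a median shift of 0.41. In the SOL 5 of 8 passed, Capzb, Tmod1 and Lmod2 higher and Capza1 and Lmod3 lower, beside 25.1% of 11957 genes with a median shift of 0.09. With only 8 members, none of these counts is read as a result about the members. After median-ratio scaling the counts were 2, 0, 5 and 4 of 8 in the same order, beside 15.9%, 9.1%, 40.2% and 28% of all genes. On the TPM scale Lmod3 was the 1 member called lower by limma in each of these comparisons. The member medians were 0.17, 0.21, -0.03 and 0.17 in the same order, against 0.20, 0.08, 0.41 and 0.09 for all genes.

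**Figure D3:**
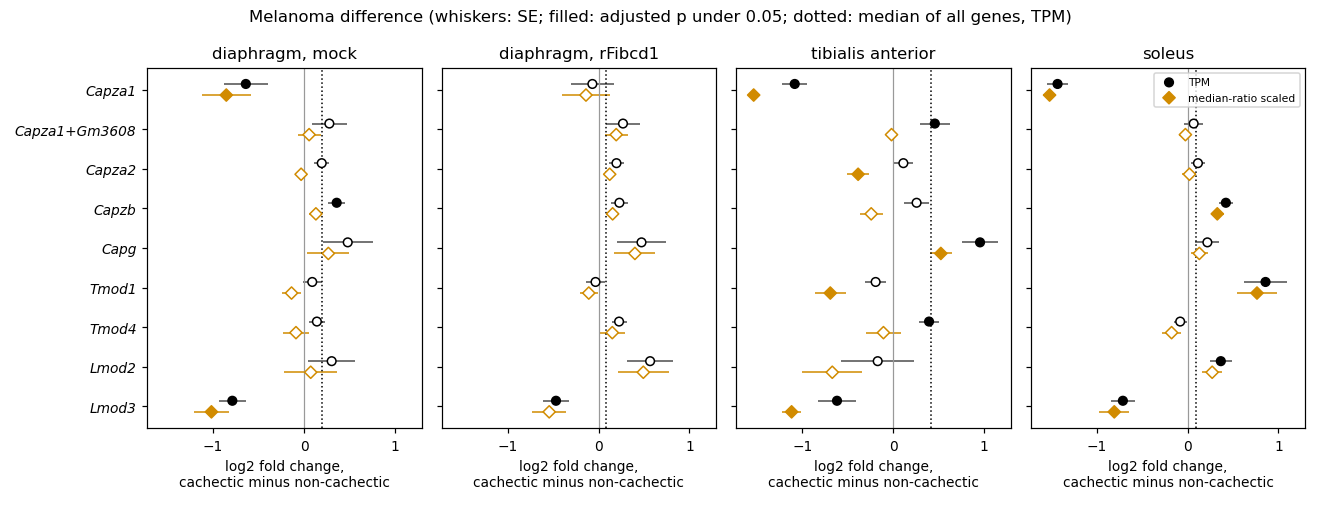
Log2 fold change of each member, cachectic minus non-cachectic, in 4 panels for the mock diaphragm, rFibcd1 diaphragm, TA and SOL; circles are TPM + 1 values, diamonds the values after median-ratio scaling, whiskers the SE, filled symbols an adjusted p under 0.05, and the dotted line the median of all genes. Lmod3 lies left of 0 in every panel (-0.79, -0.47, -0.62 and -0.71), whereas on the TPM scale the sum of Capza1 and Gm3608 lies right of 0 and Capza1 alone left of it.

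Capza1, an alpha subunit of CapZ, was lower with a cachectic melanoma in the limb muscles, but the sum with Gm3608 was not. In the TA it was at 4.78, 4.96, 5.78, 6.28 and 8.67 TPM with a cachectic melanoma and at 13.2, 13.3, 13.5, 13.97 and 14.8 TPM with a non-cachectic one. In the SOL it was at 4.92, 5.34, 6.79, 6.91 and 7.82 TPM against 17.3, 17.9, 18.2, 19.7 and 20.1 TPM. In both muscles every cachectic library was below every non-cachectic one. The differences were -1.08 ± 0.141 (SE; limma, adjusted p = 0.000325) in the TA and -1.43 ± 0.114 (adjusted p = 1.92e-05) in the SOL. The sum of Capza1 and Gm3608 was at 20.2 ± 6.37 TPM (SD, n = 5) with a cachectic melanoma against 13.99 ± 0.619 TPM (n = 5) in the TA, a difference of 0.46 ± 0.165 (adjusted p = 0.0316, limma) that was -0.02 after median-ratio scaling. In the SOL the sum was at 19.99 ± 3.16 TPM against 18.9 ± 1.27 TPM, a difference of 0.07 ± 0.108 (adjusted p = 0.686, limma).

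Capza1 in the mock diaphragm had a lowest, median and highest level of 6.47, 8.78 and 18.01 TPM with a cachectic melanoma and 6.81, 21.3 and 23.2 TPM with a non-cachectic one. Most cachectic libraries lay low and most non-cachectic libraries high, but the groups overlapped. The difference was -0.64 ± 0.243 (adjusted p = 0.0392, limma), and leaving out single libraries gave adjusted p-values of 0.0142 to 0.0777, with the call lost in 13 of the 39 omissions and with no filter on low values (adjusted p = 0.0653). It was -0.08 ± 0.161 (adjusted p = 0.816) with the state as a term, 0.19 ± 0.218 (adjusted p = 0.562) among high-state libraries alone, and 0.28 (adjusted p = 0.25) for the sum with Gm3608. In the rFibcd1-treated diaphragm the Capza1 levels were 7.10, 15.2 and 20.3 TPM against 9.03, 13.5 and 27.2 TPM, and the difference was -0.07 ± 0.236 (adjusted p = 0.888, limma). For the sum with Gm3608 it was 0.27 (adjusted p = 0.376, limma).

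Capza2, the other alpha subunit, did not pass in limma in any of these comparisons. It lies at chr6:17636234-17666972 on the plus strand. In the TA its levels were 79.9, 90.8, 92.6, 99.6 and 107 TPM with a cachectic melanoma and 75.2, 78.9, 90.7, 92.3 and 96.8 TPM with a non-cachectic one. The groups overlapped, and the difference was 0.11 ± 0.111 (adjusted p = 0.376, limma) on the TPM scale but -0.38 (adjusted p = 0.0279) after median-ratio scaling, where Capza2 counts as lower. In the SOL its levels were 53.1, 56.5, 61.8, 63.5 and 65.6 TPM against 53.5, 54.2, 54.3, 55.6 and 59.2 TPM, with a difference of 0.11 ± 0.0759 (adjusted p = 0.296, limma). In the mock diaphragm the lowest, median and highest levels were 49.4, 53.7 and 58.8 TPM against 43.1, 46.7 and 53.6 TPM. This difference, 0.19 ± 0.0811 (adjusted p = 0.0597, limma), lay within 0.01 log2 of the median gene's shift. It passed in Dunn's rank test, in the fit of only the groups compared and in 6 of the 39 omissions of single libraries (adjusted p down to 0.0248, limma), and it was -0.03 after scaling. With rFibcd1 the levels were 41.3, 60.7 and 81.0 TPM against 45.1, 53.1 and 57.3 TPM, a difference of 0.20 ± 0.0789 (adjusted p = 0.106, limma). It passed without the cachectic library at 41.3 TPM (0.26, adjusted p = 0.0193) and without that at 46.7 TPM (0.24, adjusted p = 0.0405).

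Capzb, the beta subunit of CapZ, was higher with a cachectic melanoma in the SOL on both scales. It lies at chr4:139192899-139291818 on the plus strand. In the SOL its levels were 119, 129, 132, 142 and 142 TPM with a cachectic melanoma and 91.6, 93.7, 98.6, 101 and 110 TPM with a non-cachectic one. The groups did not overlap, and the difference was 0.42 ± 0.0775 (adjusted p = 0.00321, limma) and 0.33 after median-ratio scaling (adjusted p = 0.00842). In the mock diaphragm the lowest, median and highest levels were 80.2, 105 and 118 TPM against 68.2, 78.4 and 93.8 TPM, so that the groups overlapped but most cachectic libraries lay above most others. The difference of 0.36 ± 0.0938 (adjusted p = 0.00389, limma) was 0.16 above that of the median gene, and it did not pass after scaling (0.13, adjusted p = 0.214) or with the state as a term (0.18 ± 0.0767, adjusted p = 0.116). In the TA the levels were 104, 125, 126, 149 and 160 TPM against 89.2, 104, 114, 116 and 130 TPM, with a difference of 0.26 ± 0.137 (adjusted p = 0.113, limma) that turned to -0.24 after scaling. Without the cachectic library at 104 TPM it was 0.34 (adjusted p = 0.0450). In the rFibcd1-treated diaphragm Capzb lay at 73.7, 108 and 143 TPM against 72.2, 91.4 and 115 TPM, with overlap, and the difference was 0.23 ± 0.0913 (adjusted p = 0.104, limma). It passed without the cachectic library at 73.7 TPM (0.29, adjusted p = 0.0234) and without the non-cachectic library at 115 TPM (0.27, adjusted p = 0.0444).

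The balance of alpha to beta mRNA depended on whether Gm3608 was counted. Capza1 and Capza2 together were 0.503 times the Capzb level in the cachectic SOL and 0.750 times in the non-cachectic SOL. With Gm3608 added, the ratios were 0.606 ± 0.0629 and 0.753 ± 0.0429 (SD, n = 5 each). In the other groups the ratio was 0.627 to 0.915 without Gm3608 and 0.802 to 0.919 with it. The share of Capza1 in both alpha subunits was 6.04% against 13.8% in the TA and 9.56% against 25.2% in the SOL, cachectic first. With Gm3608 added to Capza1 these shares became 17.4% ± 2.98 against 13.998% ± 1.74 and 24.9% ± 2.94 against 25.4% ± 0.749 (SD, n = 5 each).

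Capg, at chr6:72544391-72562983 on the plus strand, was higher with a cachectic melanoma in the TA. Its levels there were 6.07, 6.47, 8.49, 9.43 and 15.0 TPM against 3.17, 4.04, 4.14, 4.16 and 4.45 TPM. Every cachectic library was above every non-cachectic one, and the difference was 0.96 ± 0.199 (adjusted p = 0.00368, limma), 0.54 above the median gene, and 0.53 (adjusted p = 0.00807) after median-ratio scaling. In the SOL the levels were 9.04, 12.9, 13.4, 13.8 and 15.0 TPM against 9.58, 9.89, 10.2, 11.2 and 13.3 TPM. The groups overlapped, and the lowest level of all was that of a cachectic library. The difference was 0.22 ± 0.133 (adjusted p = 0.25, limma), and it was 0.33 (adjusted p = 0.0324) without that library.

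Capg in the mock diaphragm had lowest, median and highest levels of 9.03, 13.02 and 29.1 TPM with a cachectic melanoma and 6.04, 10.9 and 12.8 TPM with a non-cachectic one. The groups overlapped, with the spread mainly upward among cachectic libraries, and the difference was 0.48 ± 0.275 (adjusted p = 0.169, limma). It passed in the fit of only the groups compared, which called 6298 genes in place of 4501. With rFibcd1 the levels were 8.00, 18.1 and 61.5 TPM against 9.40, 12.95 and 42.5 TPM, a difference of 0.47 ± 0.268 (adjusted p = 0.273, limma).

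In each muscle and treatment, mean levels of Capg and of summed macrophage markers were both higher with a cachectic melanoma. Of 12 markers 11 were in the table, none of them at 0 in all libraries, and their summed TPM averaged 216 (range 59 to 406) in the cachectic TA against 47.6 (34.4 to 70.7) in the non-cachectic TA. The sums were 241 (96.9 to 459) against 143 (130 to 173) in the SOL, 1065 (447 to 1795) against 564 (257 to 849) in the mock diaphragm, and 1523 (361 to 3983) against 891 (354 to 1896) in the rFibcd1 diaphragm. Among the markers tested, 9 of 9 were higher with a cachectic melanoma in the TA, 2 of 10 in the SOL, 6 of 11 in the mock diaphragm and 2 of 11 in the rFibcd1 diaphragm. Of all genes tested 56.4%, 17.5%, 30.9% and 7.14% were higher in the same comparisons. After median-ratio scaling 7, 2, 6 and 3 of the markers were higher, beside 18.2%, 15.2%, 7.39% and 4.29% of all genes. Across the 39 diaphragm libraries, centred on their group means, the correlation of Capg with the summed markers was r = 0.892, as a description of libraries that share groups and normalization. Summed neutrophil markers were also higher on average with a cachectic melanoma, at 20.4 against 2.43 TPM in the TA, 17.1 against 4.00 TPM in the SOL, 30.6 against 8.67 TPM in the mock diaphragm and 66.5 against 36.5 TPM with rFibcd1. Summed smooth muscle markers were at 145 against 72.8, 299 against 165, 214 against 109 and 167 against 125 TPM in the same order. The part of these cells in the Capg differences was not tested, and in bulk muscle a difference in the number of cells of a type and one in RNA per cell cannot be told apart.

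**Figure D4:**
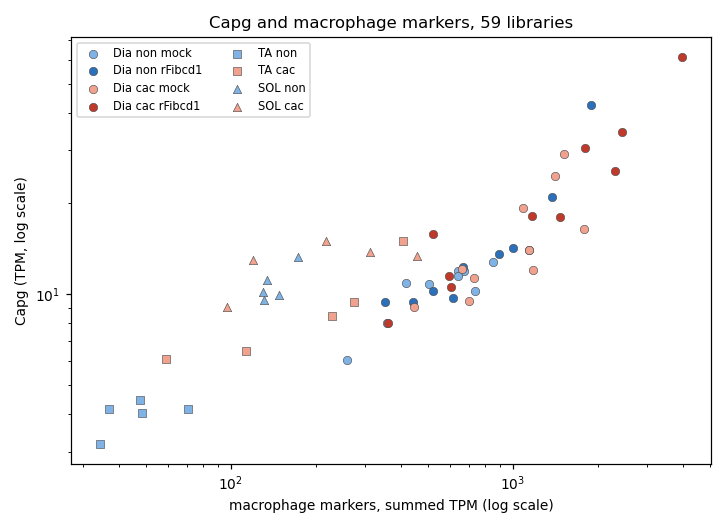
Capg (TPM, log scale) against the summed TPM of 11 macrophage markers (log scale) in the 59 libraries, with symbols for the muscle and color for melanoma and treatment. The diaphragm library with 61.5 TPM of Capg also has the highest marker sum, 3983 TPM, while the SOL lies off the diaphragm, with mean Capg of 10.8 TPM at a sum of 143 TPM in the non-cachectic SOL against 10.5 TPM at 564 TPM in the non-cachectic mock diaphragm.

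Of the tropomodulins, Tmod1 (chr4:46038935-46116032, plus strand) was higher with a cachectic melanoma in the SOL and Tmod4 (chr3:95124476-95129209, plus strand) in the TA. Tmod1 shares 1287 bases with Tstd2 on the opposite strand, which was at a mean of 5.55 TPM, so that some reads there may belong to either gene. Tmod1 levels in the SOL were 49.2, 62.7, 65.4, 115 and 119 TPM with a cachectic melanoma and 35.1, 37.8, 42.2, 47.8 and 50.7 TPM with a non-cachectic one. The lowest cachectic library fell within the non-cachectic range, and 2 cachectic libraries stood far above the other 3. The difference was 0.86 ± 0.231 (adjusted p = 0.0197, limma), 0.77 above the median gene, and 0.76 (adjusted p = 0.026) after median-ratio scaling. It did not pass in the exact Mann-Whitney test (adjusted p = 0.0625). In the TA the Tmod1 levels were 92.9, 105, 115, 116 and 134 TPM against 112, 125, 129, 137 and 138 TPM. These groups overlapped, with a difference of -0.19 ± 0.114 (adjusted p = 0.151, limma) that was -0.69 (adjusted p = 0.00932) after scaling. Tmod1 in the mock diaphragm lay at 61.1, 71.3 and 82.9 TPM (lowest, median and highest) against 55.5, 61.8 and 86.9 TPM, a difference of 0.09 ± 0.102 (adjusted p = 0.496, limma).

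Tmod4 levels in the TA were 323, 360, 387, 392 and 461 TPM with a cachectic melanoma and 255, 273, 299, 310 and 317 TPM with a non-cachectic one. The groups did not overlap, and the difference was 0.40 ± 0.112 (adjusted p = 0.0127, limma), but it was -0.02 relative to the median gene and -0.11 (adjusted p = 0.684) after median-ratio scaling. In the SOL the levels were 250, 256, 269, 273 and 297 TPM against 268, 276, 286, 294 and 298 TPM, which overlapped, with a difference of -0.08 (adjusted p = 0.435, limma). In the diaphragm Tmod4 lay at 186, 252 and 283 TPM against 195, 217 and 233 TPM with mock, a difference of 0.14 ± 0.0850 (adjusted p = 0.19, limma). With rFibcd1 it lay at 216, 256 and 403 TPM against 186, 231 and 261 TPM, a difference of 0.23 ± 0.0828 (adjusted p = 0.0762, limma). This passed with the state as a term (0.25 ± 0.0815, adjusted p = 0.0447) and without the cachectic library at 216 TPM (0.26, adjusted p = 0.0446), but not with the state as a term after median-ratio scaling (0.23, adjusted p = 0.199).

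The Tmod4 share of both tropomodulins, a ratio within a library that no scaling changes, was 77.3% ± 1.42 against 69.4% ± 0.967 in the TA (SD, n = 5 each, cachectic first), with ranges of 75.5 to 79.5% and 68.6 to 71.0%. In the SOL it was 76.9% ± 7.94 against 86.9% ± 1.99, with ranges of 67.7 to 84.5% and 84.1 to 88.7%. The share thus lay higher with a cachectic melanoma in the TA, without overlap, and lower in the SOL, with overlap in 1 library. In the 4 diaphragm groups its means were 76.1 to 79.0%.

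Lmod3 was lower with a cachectic melanoma in each muscle and treatment by limma, though rank tests did not call it in the rFibcd1 diaphragm or the TA. It lies on the minus strand at chr6:97238534-97252759. In the mock diaphragm its lowest, median and highest levels were 91.7, 131 and 206 TPM with a cachectic melanoma and 169, 231 and 273 TPM with a non-cachectic one. The groups overlapped only at the upper end of the cachectic range, whose highest library was also its 1 library of the low state. The difference was -0.79 ± 0.149 (adjusted p = 0.000229, limma), and -1.02 (adjusted p = 0.000382) after median-ratio scaling. It was -0.60 ± 0.150 (adjusted p = 0.00639) with the state as a term and -0.65 ± 0.218 (adjusted p = 0.0697) among high-state libraries alone, where 3 non-cachectic libraries remained. Within the high state the mean levels were 126 ± 24.1 TPM (SD, n = 9) and 197 ± 25.7 TPM (SD, n = 3).

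With rFibcd1 the Lmod3 levels were 69.2, 170 and 229 TPM with a cachectic melanoma and 186, 210 and 288 TPM with a non-cachectic one. The ranges overlapped, and the difference of -0.47 ± 0.145 (adjusted p = 0.0366, limma) was -0.54 (adjusted p = 0.0566) after median-ratio scaling. The call was lost in 6 of the 39 omissions of single libraries. One of these was the cachectic library at 69.2 TPM, without which the difference was -0.34 (adjusted p = 0.0724). The difference between treatments in the size of this decrease was 0.32 ± 0.209 (adjusted p = 0.659, limma).

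In the TA the Lmod3 levels were 76.5, 79.6, 83.6, 86.8 and 186 TPM with a cachectic melanoma and 140, 142, 148, 152 and 158 TPM with a non-cachectic one. Of the 5 cachectic libraries 4 lay below all others and 1 above all others. The difference was -0.62 ± 0.209 (adjusted p = 0.0253, limma), and it was -0.85 (adjusted p = 4.02e-06) without the library at 186 TPM and -1.12 (adjusted p = 6.9e-05) with all libraries after median-ratio scaling. It did not pass with no filter on low values (adjusted p = 0.0502, limma) or in the exact Mann-Whitney test (adjusted p = 0.189). The call was lost in 5 of 10 omissions of single libraries, with adjusted p-values of up to 0.0550. In the SOL the levels were 127, 145, 180, 197 and 213 TPM against 248, 276, 278, 280 and 309 TPM. Here the groups did not overlap, with a difference of -0.71 ± 0.135 (adjusted p = 0.00365, limma) and -0.81 (adjusted p = 0.00512) after scaling. In both limb muscles the Pcna-ps2 state coincided with the melanoma, so that these differences cannot be told apart from one between states. Within the diaphragm the high state minus the low state was -0.33 ± 0.113 (SE) for Lmod3, and -0.62 after scaling. The decrease passed no test of a difference between muscles, with -0.17 for diaphragm against TA (adjusted p = 0.65), -0.08 for diaphragm against SOL (adjusted p = 0.912) and 0.10 for TA against SOL (adjusted p = 0.815, all limma), although such p-values do not show that the decreases were equal.

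Lmod2, at chr6:24597762-24605414 on the plus strand, had differences opposite in sign to Lmod3 in the SOL and the diaphragm but not in the TA. No test compared both genes. In the SOL its levels were 1172, 1225, 1302, 1457 and 1633 TPM with a cachectic melanoma and 907, 936, 1074, 1123 and 1223 TPM with a non-cachectic one. The groups overlapped in 1 library, and the difference of 0.37 ± 0.118 (adjusted p = 0.0409, limma) did not pass after median-ratio scaling (0.27, adjusted p = 0.0857), with no filter on low values (adjusted p = 0.0744), in rank tests or in 6 of 10 omissions of single libraries. In the TA its levels were 54.0, 78.6, 104, 108 and 383 TPM against 101, 118, 123, 126 and 180 TPM. The difference was -0.17 ± 0.404 (adjusted p = 0.717, limma), and without the library at 383 TPM, the same library that had 186 TPM of Lmod3, it was -0.61 (adjusted p = 0.0264). That library also had the highest Capza1, Capza2, Capzb, Capg and Gm3608 levels (8.67, 107, 160, 15.0 and 22.5 TPM) and the lowest Tmod4 level (323 TPM) of its group. Genes outside these families were at their highest of the group there too, among them Pcna (21.4 TPM) and Tstd2 (6.28 TPM). Its summed slow-fiber markers were the lowest of the group at 5.67 TPM and its summed macrophage markers the highest at 406 TPM, and the part of these differences in its leiomodin levels was not tested. Lmod2 in the mock diaphragm lay at 335, 406 and 1183 TPM (lowest, median and highest) against 279, 364 and 484 TPM, a difference of 0.30 ± 0.256 (adjusted p = 0.355, limma). With rFibcd1 it lay at 114, 379 and 903 TPM against 134, 230 and 324 TPM. The ranges overlapped, with a difference of 0.57 ± 0.249 (adjusted p = 0.144, limma) that was 0.73 (adjusted p = 0.0391) without the cachectic library at 114 TPM.

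As a ratio within each library, Lmod3 made up 23.8% ± 7.63 (SD, n = 10) of both leiomodins in the cachectic mock diaphragm and 38.6% ± 3.80 (n = 9) in the non-cachectic one, with ranges of 7.19 to 36.1% and 33.1 to 43.3%. With rFibcd1 the shares were 35.2% ± 16.1 and 50.1% ± 4.87 (n = 10 each), with ranges of 7.11 to 58.8% and 43.9 to 60.7%. In the SOL they were 11.4% ± 2.72 and 21.1% ± 2.63 (n = 5 each), ranging from 7.20 to 14.4% and from 16.9 to 23.5% without overlap. In the TA they were 46.1% ± 10.6 and 53.8% ± 5.65 (n = 5 each), which overlapped.

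**Figure D5:**
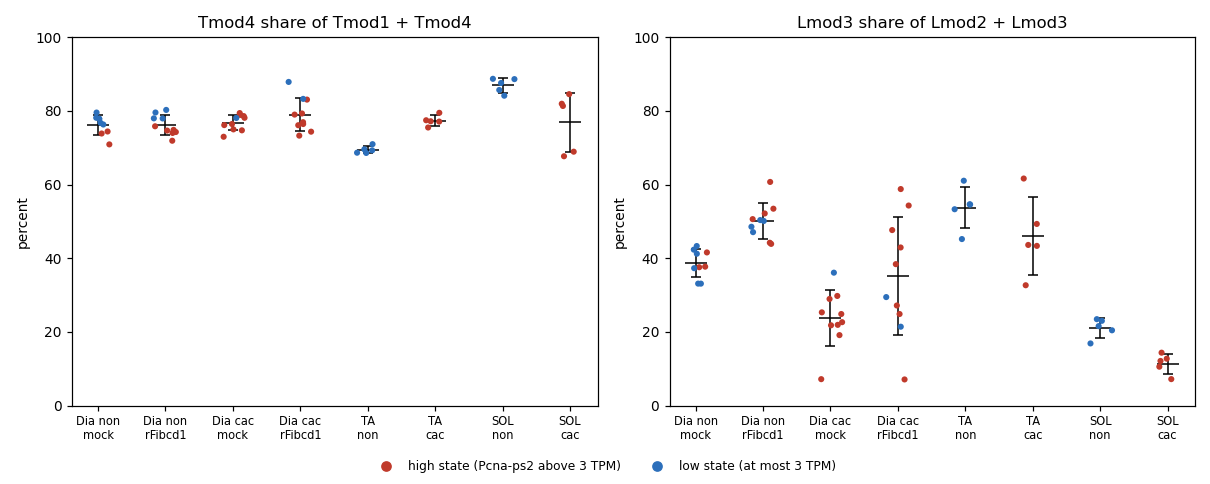
Left, Tmod4 as a percentage of Tmod1 + Tmod4 TPM; right, Lmod3 as a percentage of Lmod2 + Lmod3 TPM, in the 59 libraries by group, with points colored by the Pcna-ps2 state, bars for means and whiskers for the SD. The Lmod3 share is lowest in the SOL (means 11.4 and 21.1%) and highest in the non-cachectic TA (53.8%), and in the SOL the melanoma groups do not overlap.

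The next question was whether rFibcd1 shifted the members in the diaphragm. With a cachectic melanoma 0 of the 8 passed (limma), beside 0.0447% of all genes. At an unadjusted p under 0.05 there was 1 member in limma, beside 1412 of 13426 genes, and 0 in Dunn's rank test, beside 1011 genes, and the rank test called 0. The member with the lowest p was Capza1 at 0.52 ± 0.236 (adjusted p = 0.445), and its sum with Gm3608 differed by 0.38 (adjusted p = 0.474). Among high-state libraries alone Capza2 passed, with 0.23 ± 0.0659 (adjusted p = 0.0392), beside 5.57% of the 14159 genes of that fit, and after median-ratio scaling of the same libraries 0 members passed, beside 2.72% of genes. With a non-cachectic melanoma 0 of 8 passed (limma), beside 0.417% of all genes, and Dunn's test called 0. In either test 1 member had an unadjusted p under 0.05, beside 2332 genes in limma and 3343 in Dunn's test. In limma it was Lmod2, which lay at 134, 230 and 324 TPM (lowest, median and highest) with rFibcd1 and at 279, 364 and 484 TPM with mock. The groups overlapped, and the difference was -0.71 ± 0.256 (adjusted p = 0.233, limma). With a cachectic melanoma Lmod2 lay at 114, 379 and 903 TPM with rFibcd1 against 335, 406 and 1183 TPM with mock, a difference of -0.45 ± 0.249 (adjusted p = 0.528, limma). The test of whether the rFibcd1 difference depended on the melanoma called 0 of 8 (limma), beside 0.0223% of all genes, with 0 at an unadjusted p under 0.05.

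The 3 muscles were compared among mice with a non-cachectic melanoma, where all limb libraries and 6 of the 9 mock diaphragm libraries were of the low state. Between TA and SOL 5 of 8 passed (limma), beside 69.5% of 13501 genes, with a median gene shift of -0.47. Capza2 (0.63 ± 0.0772, adjusted p = 1.2e-08) and Tmod1 (1.57 ± 0.163, adjusted p = 3.68e-10) were higher in the TA, without overlap. Capg (-1.24 ± 0.230, adjusted p = 1.77e-05), Lmod2 (-3.03 ± 0.304, adjusted p = 1.81e-10) and Lmod3 (-0.90 ± 0.185, adjusted p = 6.94e-05) were lower, also without overlap. Relative to the median gene the Lmod3 difference was -0.44, and after median-ratio scaling it did not pass (-0.28, adjusted p = 0.228). That scaling brought in Capzb (0.78) and Tmod4 (0.66) as higher in the TA, both at 0.15 or less on the TPM scale.

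Between the mock diaphragm and the TA 7 of 8 passed (limma), beside 72.5% of genes and a median shift of 0.44. In the diaphragm Capg (1.18 ± 0.203, adjusted p = 4.44e-06), Lmod2 (1.499 ± 0.269, adjusted p = 8.08e-06) and Lmod3 (0.61 ± 0.163, adjusted p = 0.00125) were higher. Capza2 (-0.86 ± 0.0680), Capzb (-0.45 ± 0.0949), Tmod1 (-0.92 ± 0.144) and Tmod4 (-0.42 ± 0.0842) were lower, with adjusted p-values of 3.4e-13, 7.48e-05, 9.15e-07 and 3.77e-05. The Lmod3 difference was 0.03 (adjusted p = 0.87) after median-ratio scaling. Between the mock diaphragm and the SOL 5 of 8 passed (limma), beside 38.8% of genes and a median shift of -0.04. Tmod1 was higher in the diaphragm (0.66 ± 0.144, adjusted p = 0.00043), and Lmod2 (-1.53 ± 0.269, adjusted p = 2.26e-05), Tmod4 (-0.39 ± 0.0842, adjusted p = 0.000321), Capzb (-0.30 ± 0.0949, adjusted p = 0.011) and Capza2 (-0.23 ± 0.0680, adjusted p = 0.00773) were lower. Lmod3, at -0.29 (adjusted p = 0.152, limma), was also called lower by rank tests and with only the groups compared. These called 6448 and 6918 genes in place of 5243. Capza1 was at -0.41 (adjusted p = 0.158), 0.14 (adjusted p = 0.595) and -0.27 (adjusted p = 0.354, all limma), in the order given. Its levels in the TA (13.2 to 14.8 TPM) and the SOL (17.3 to 20.1 TPM) did not overlap, and it was called lower in the TA by rank tests, with only the groups compared and with state-matched diaphragms. State-matched diaphragms also called it higher than in the TA. Its sum with Gm3608 was at -0.41 (adjusted p = 0.0177), 0.65 (adjusted p = 5.99e-05) and 0.24 (adjusted p = 0.146, all limma). After median-ratio scaling the sum was at 0.19, 0.10 and 0.29, with adjusted p-values of 0.0828, 0.255 and 0.00358. All 3 comparisons share libraries, so that their values are not independent.

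Whether the difference between the melanomas itself depended on the muscle was tested without the rFibcd1 libraries. The state coincided with the melanoma in the limb muscles but only partly in the diaphragm. There 9 of 10 cachectic and 3 of 9 non-cachectic mock libraries were high, so that a dependence on the muscle cannot be told apart from one on the state. Between TA and SOL 2 of 8 passed (limma), beside 20.4% of genes and a median of 0.30: the difference was more negative in the TA by -1.05 ± 0.230 for Tmod1 (adjusted p = 0.00233) and more positive by 0.48 ± 0.135 for Tmod4 (adjusted p = 0.0138). The Tmod4 value was 0.06 (adjusted p = 0.901) after median-ratio scaling, which instead called Capza2 (-0.41, adjusted p = 0.0209) and Capzb (-0.58, adjusted p = 0.00503). Capg was at 0.74 ± 0.326 (adjusted p = 0.0944, limma) and passed when the column numbers that recur across muscles were used as a block, a fit that called 3 members and 5569 genes in place of 2750. It also passed in the fit of only the groups compared, which called 3 members and 1877 genes. Between diaphragm and SOL 1 of 8 passed (limma), beside 2.52% of genes. This was Tmod1 at -0.77 ± 0.201 (adjusted p = 0.0314), and without the SOL library at 119 TPM it was -0.61 (adjusted p = 0.0739). The call was lost with only the groups compared and with state-matched diaphragms. It was also lost in 5 omissions of single libraries, with adjusted p-values of 0.0539 to 0.0808. Between diaphragm and TA 0 of 8 passed (limma), beside 5.04% of genes, with 1 at an unadjusted p under 0.05, Tmod4 at -0.25 ± 0.118 (adjusted p = 0.179).

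The genes whose levels ran most alike to each member were sought across the 39 diaphragm libraries, as Pearson's r of log2(TPM + 1) centred on group means over 9058 genes, given as a description of libraries that share a normalization. Capg was most like Cyba (r = 0.954), Arhgdib (0.948) and Ptpn6 (0.946), all genes of blood cells. Capza2 was most like Stx7 (0.925), Dync1i2 (0.905) and Itgb1 (0.901), and Capzb most like Adprh (0.861), Dpm2 (0.861) and Slc35c2 (0.853). Capza1, taken without Gm3608, was most like Snrpb2 (0.867), Snapc1 (0.836) and Tdg (0.832). Tmod4 was most like Tnnc2, the fast troponin C gene (0.776), Smarcd3 (0.775) and Sepw1 (0.766), and Tmod1 most like Nap1l4 (0.772), Obsl1 (0.738) and Slc37a4 (0.720). Lmod2 was most like Pim3 (0.836), Cnksr1 (0.799) and Sugp1 (0.790), and Lmod3 most like 2310040G24Rik (0.752), Jph2 (0.700) and Hacd1 (0.694). Between members r was highest for Capza2 with Capzb (0.721), the alpha and beta subunits of CapZ, and lowest for Capza1 with Tmod1 (-0.556), while both leiomodins gave -0.330.

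Of the same families 4 further genes were in the table. Capza3, the alpha subunit of the testis, was listed at 0 in all libraries, and Tmod2 was at 0.525 to 4.28 TPM. Tmod3, a widely expressed tropomodulin, had group means of 10.99 TPM in the non-cachectic TA to 36.9 TPM in the cachectic rFibcd1 diaphragm, and Lmod1, the leiomodin of smooth muscle, had group means of 3.46 to 8.59 TPM.

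Genes that act with the members were followed in 5 lists, whose counts are to be read against the share of all genes tested that were higher with a cachectic melanoma: 30.9% in the mock diaphragm, 7.14% in the rFibcd1 diaphragm, 56.4% in the TA and 17.5% in the SOL, and 7.39%, 4.29%, 18.2% and 15.2% after median-ratio scaling. The shares that were lower were 2.67%, 1.97%, 3.78% and 7.54%, and 8.47%, 4.81%, 22% and 12.8% after scaling. Among the genes of dynactin and the WASH complex, both of which hold CapZ as a component, 9 of the 14 listed were tested. All those named here are of dynactin, so that they give no result on the WASH complex. Higher with a cachectic melanoma were 6 of 9 in the mock diaphragm (Dctn3 0.35, Dctn1 0.33, Dctn4 0.29), 3 of 9 in the rFibcd1 diaphragm, 5 of 9 in the TA (Dctn2 0.65, Dctn3 0.53, Actr10 0.45) and 3 of 9 in the SOL (Actr1b 0.65, Dctn3 0.59, Actr10 0.40), and none was lower. The TA count was that of the background. After scaling the counts of higher genes were 0, 0, 0 and 3, with 1 lower in the TA. Of 10 genes for partners and regulators of CapZ, 7 were tested. Of these 1 was higher in the mock diaphragm (Twf1, 0.39), 3 were higher (Twf1 0.89, Cd2ap 0.71, Rcsd1 0.38) and 1 lower (Sh3kbp1, -0.78) in the TA, and 1 was lower in the SOL. After scaling 0 passed in the mock diaphragm (limma; Twf1 0.17, adjusted p = 0.21), 2 were higher and 2 lower in the TA, where Rcsd1 turned to -0.12 (adjusted p = 0.209), and 2 were lower in the SOL.

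In the list of thin filament and Z-disc genes, 23 were tested. In the mock diaphragm 5 were higher, among them Myoz2 (0.76) and the giant ruler protein gene Neb (0.41), and 1 was lower, the cardiac actin gene Actc1 (-2.12, adjusted p = 0.00238, limma). After median-ratio scaling 0 were higher there and 1 was lower, with Myoz2 at 0.53 (adjusted p = 0.183) and Neb at 0.18 (adjusted p = 0.31, limma). In the TA 6 were higher (Tnnc1 1.52, Tpm3 1.04, Actn3 0.99) and 6 lower (Actc1 -2.81, Actn2 -0.91, Acta1 -0.87), a split that was 2 higher and 10 lower after median-ratio scaling, beside 18.2% and 22% of all genes. In the SOL 9 were higher and 0 lower, with the repair-associated Xirp1 (1.75, adjusted p = 0.00069, limma), Klhl40 (1.28), whose product stabilizes the Lmod3 protein, and Xirp2 (1.18), and 6 were higher after scaling. In the rFibcd1 diaphragm 0 of 23 passed in limma.

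Of 13 other capping and severing genes, 4 were higher in the mock diaphragm (Eps8 0.73, Cfl2 0.37, Flii 0.30), 0 passed in the rFibcd1 diaphragm (limma), 7 were higher and 1 lower in the TA (Gsn 0.86, Cfl1 0.75, Flii 0.66), and 3 were higher and 1 lower in the SOL (Cfl2 0.57, Wdr1 0.56, Flii 0.34). After median-ratio scaling the higher and lower counts were 1 and 0, then 1 and 4, then 2 and 2 for the mock diaphragm, TA and SOL. Of 6 genes of the SRF and MEF2 regulators, 1 was higher in the mock diaphragm (Mkl2, 0.40), 2 in the TA (Mkl2 0.55, Mef2d 0.34) and 0 in the SOL (limma). After scaling 3 of the 6 were lower in the TA, beside 22% of all genes. In the comparisons of rFibcd1 with mock and in the test of their dependence on the melanoma, 0 genes of any list passed (limma).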

How the data were processed

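Paired reads were trimmed by the authors, aligned to the mouse genome GRCm38 (mm10) in CLC Genomics Workbench and deposited as 1 table of TPM, in which each library has the same total. The annotation used by the authors is not given in the sources used here, and 45134 of 47643 symbols (94.7%) had a GENCODE M21 name. Labels and methods differ on the library kit and instrument. Columns carry a group but no labelled replicate number. Sequences and positions were read from GENCODE M21 on GRCm38 and compared with BLAST+ 2.17.0.

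Differences were tested two-sided on log2(TPM + 1), with a pseudocount of 1, by limma 3.58.1 with a mean-variance trend in R 4.3.3. Benjamini-Hochberg adjustment ran over all genes at 1 TPM or more in as many libraries as the smallest group, and an adjusted p under 0.05 was called. The 4 fits held all 39 diaphragm libraries (13426 genes), 10 TA libraries (11105), 10 SOL libraries (11957) and the 39 libraries without rFibcd1 (13501), for 13 comparisons. Rank tests (Dunn's test, which the study used, or for 2 groups the exact Mann-Whitney test), median-ratio scaling, a pseudocount of 0.1, other filters, smaller fits, omission of single libraries and the Pcna-ps2 state as a term were alternatives. The p-values measure the spread between libraries that the labels give as replicates. Named genes were all 8 members all other genes of their families and, from each list, the called genes with the largest changes at a mean of 5 TPM or more, up to 3 in each direction. The members and lists were chosen with earlier results of these data known. The limma fits were also run on simulated data, for the first comparison of each fit. Those data held independent values without a library state or a shared shift, so that they do not test how such features affect the calls. Figures were drawn with matplotlib 3.10.9.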

Additional observations from a re-analysis of the deposited data

Results flagged for a closer look

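Within the 64 combinations of member and group, 7 held a library far from the others of its group by Dixon's test, and chance alone marks about 1 in 20. Capg was at 61.5 TPM in a cachectic rFibcd1 diaphragm with a macrophage marker sum of 3983 TPM, and at 42.5 TPM in a non-cachectic rFibcd1 diaphragm with a sum of 1896 TPM. Tmod4 was at 403 TPM in a cachectic rFibcd1 diaphragm of the low state, whose fast-fiber markers summed to 31415 TPM. Lmod2 was at 1183 TPM in a cachectic mock diaphragm, where Lmod3 was at 91.7 TPM. Lmod2 was at 903 TPM in a cachectic rFibcd1 diaphragm, where Lmod3 was at its lowest of any library, 69.2 TPM. In the TA with a cachectic melanoma, 1 library held the outlying values of both leiomodins, 383 TPM of Lmod2 and 186 TPM of Lmod3.

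By limma the difference between the melanomas itself differed between muscles for both tropomodulins, though not under every alternative. For Tmod1 the value in the diaphragm minus that in the SOL was -0.77 log2, a call lost with only the groups compared, with state-matched diaphragms and in 5 omissions of single libraries (adjusted p up to 0.0808), and the value in the TA minus that in the SOL was -1.05 log2. For Tmod4 the TA minus the SOL was 0.48 log2, and 0.06 (adjusted p = 0.901) after median-ratio scaling.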

How the results depend on the processing

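Median-ratio scaling turned Tmod4 in the TA to -0.11. The count of members called in the rFibcd1-treated diaphragm (1) became 0 with no filter, median-ratio scaling, only the groups compared, high-state libraries alone, rank tests, and scaling combined with either use of the state, and 2 with the state as a term (Lmod3 and Tmod4). Of all genes 1223 were called in the main fit, 966 with no filter, 1216 with scaling and 335 with only the groups compared. Rank tests and high-state libraries, scaled or not, called 0 of all genes, and the state as a term called 1353, or 1401 with scaling. In the mock diaphragm (3) it was 2 with no filter or scaling, 4 with rank tests, 5 with only the groups compared (Capza2 and Capg added), 1 with the state as a term, 0 among high-state libraries, and 1 with scaling combined with either. Of all genes the main fit called 4501, no filter 4260, scaling 2121, rank tests 5440 and only the groups compared 6298. The state as a term called 2059, or 1559 with scaling, and high-state libraries 805, or 358 with scaling. For rFibcd1 against mock it was 1 in place of 0 among high-state libraries (cachectic, Capza2) and with only the groups compared (non-cachectic, Lmod2). All genes called rose there from 6 to 789 and from 56 to 2453. In the SOL (5) rank tests called 3, without Tmod1 and Lmod2, and no filter and scaling each called 4, without Lmod2. All genes called were 2394 with rank tests, 3058 with no filter and 3357 with scaling, against 2999 in the main fit. In the TA (4) rank tests and no filter each called 3, without Lmod3, and scaling called 5. Rank tests called 7342 of all genes there, no filter 6989 and scaling 4470, against 6680 in the main fit. For the difference between muscles, scaling called 1 (Capza2) in place of 0 for diaphragm against TA, and diaphragm against SOL (1) became 0 with only the groups compared or with state-matched diaphragms. All genes called were 704 in place of 681 for diaphragm against TA. For diaphragm against SOL they were 339 and 318 in place of 340. Capza1 reversed in the mock diaphragm to 0.19 (high state), 0.0189 (high state, scaled) and 0.28 (summed with Gm3608), in the rFibcd1 diaphragm to 0.13 (state term), 0.25 (high state), 0.12 and 0.16 (both scaled) and 0.27 (summed), and when summed to 0.46 in the TA and 0.0669 in the SOL. Omitting single libraries gave 2 to 4 calls in the mock diaphragm, 0 to 3 with rFibcd1, 3 to 5 in the TA, 4 to 6 in the SOL and 0 to 1 for diaphragm against SOL. It put Capza1 in the rFibcd1 diaphragm at -0.139 to 0.0305. The causes were not tested.

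The sum with Gm3608, state-matched diaphragms, scaling combined with the state and the block were chosen after seeing the data. No labelled replicate number ties a column to a sample, and no fit was paired by the labels. With the column number, which recurs across muscles (correlation 0.381), as a replicate block, the calls were 5, 7, 5, 0, 1 and 3 for the comparisons among muscles (TA and SOL, diaphragm and TA, diaphragm and SOL, then their differences by melanoma in the order diaphragm and TA, diaphragm and SOL, TA and SOL). All genes called in the same order were 10281, 10388, 6734, 2317, 994 and 5569, against 9385, 9790, 5243, 681, 340 and 2750 without the block. Depth is unknown for TPM, so that the precision of low levels such as those of Gm3608 in the low state cannot be given.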
